A study of Mus musculus with 12 samples.

Results

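The 10 genes described here are genes, other than collagens, that meningeal fibroblasts are known for: *Dcn*, *Bgn*, *Fmod*, *Lum*, *Ogn*, *Islr*, *Ptgds*, *Slc6a13*, *Slc22a6*, and *Foxc1*. They were chosen by name, with earlier results of these data known, so their counts beside all genes are not an independent test. All 10 were found among the 55418 genes of the count table and passed the filter on low counts in every comparison. Their levels were read in 12 brainstem libraries, 1 per mouse, from outbred CFW mice killed at P15. Each treatment was given to 3 females and 3 males. The morphine mice had received 15 mg/kg morphine 2 times daily from P1 through P14, the saline mice had received saline on the same days, and tissue was taken 16 h after the last injection, when the morphine mice were in spontaneous withdrawal. The study compared morphine with saline in both sexes together and in each sex alone. The sample labels give brainstem and the extraction text names spinal cords, and the labels were followed. Neuronal markers summed to between 7014 and 9484 CPM and astrocyte markers to between 6593 and 8341 CPM in every library. These sums were not compared with spinal cord and do not tell it from brainstem.

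The libraries held between 27850565 and 48097947 counts on genes, with a median of 33214511, and the least covered of the 10 genes, *Slc22a6*, had between 45 and 246 counts. Levels are given as CPM, counts scaled to a common library size with TMM factors, and fold changes are morphine over saline with the standard error (SE) of the log2 value. Differentially expressed (DE) genes had an unadjusted *p* under 0.05 from edgeR's quasi-likelihood test and an absolute log2 fold change over 0.26, the thresholds of the study. A pair of libraries stood apart from others of their group. Saline male 3 differed from the other saline males with a chi-square of 198.1 and 257.3 per degree of freedom, against 12.45 between those males. This was compared only within groups. The summed level of 10 oligodendrocyte genes was 60698 and 63987 CPM in saline males 1 and 2 and 42179 CPM in saline male 3. It was at most 52707 CPM in the other groups. The neuronal sum was highest in saline male 3. Which saline males are unusual was thus not settled, and the fits without saline male 3 keep saline males 1 and 2. The library labelled morphine male 6 had *Xist* at 379.9 CPM and 4 Y-linked genes at 8.35% to 29.5% of their mean in the other males. It was kept in its labelled group, and several results that rest on either library are also given without it.

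The meninges are the membranes around the brain, and their pial and arachnoid layers are built by fibroblasts. These cells lay down an extracellular matrix of collagens and of small leucine-rich proteoglycans, which bind collagen and control how its fibrils form. They also take up and clear solutes at the border with the cerebrospinal fluid, secrete signals such as retinoic acid to the developing brain, and depend on forkhead transcription factors for their own development. A dissected brainstem carries meninges on its surface. In whole-tissue RNA, fewer fibroblasts, less meninges kept at dissection, and less RNA per fibroblast cannot be told apart. Some of the genes are also known from other cells: *Ptgds* from oligodendrocytes and choroid plexus, *Bgn* from vessels, and *Foxc1* from vascular mural cells.

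Per kilobase of exon, which allows levels to be compared between genes, *Ptgds* was far above the rest, at 196.3 ± 86.0 CPM per kb (SD, n = 6) in saline mice. *Dcn* followed at 7.01 ± 1.90, *Ogn* at 6.32 ± 2.65, *Fmod* at 5.57 ± 1.22, *Bgn* at 4.73 ± 0.694, *Slc6a13* at 4.41 ± 1.11, *Islr* at 3.83 ± 1.56, and *Lum* at 3.02 ± 1.01 CPM per kb. *Foxc1* at 1.23 ± 0.353 and *Slc22a6* at 0.909 ± 0.293 CPM per kb were lowest. Mean and SD did not overlap only between *Ptgds* and *Dcn* and between *Lum* and *Foxc1* among the neighbors in this order.

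In females 5 of the 10 genes were DE, and all 5 were lower in morphine mice: *Dcn*, *Bgn*, *Fmod*, *Ptgds*, and *Slc6a13*. In the 6 females, 18109 genes were tested, 1.81% were DE genes and 0.884% were DE genes that were lower in morphine mice. All 10 genes had a log2 fold change below 0, as did 51.8% of the genes tested, and their median was -0.63 against -0.006 for all genes tested. Every morphine female was below every saline female for *Dcn*, *Fmod*, *Ptgds*, *Slc6a13*, and *Foxc1*, against 2.87% of the genes tested. For these 5 genes the exact permutation *p* was 0.1, the smallest that 3 mice against 3 allow. After adjustment over all genes, 0 of the 10 genes had a *p* under 0.05 in either sex or in the sex-combined comparison by the quasi-likelihood test, exactTest, or DESeq2, and neither did any other gene (0%) by the quasi-likelihood test. Without the filter on low counts 34716 genes were tested in females, of which 3.15% were DE genes and 0.222% passed 0.05 after adjustment (edgeR), and the counts among the 10 genes were 8 and 5.

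**Figure D1:**
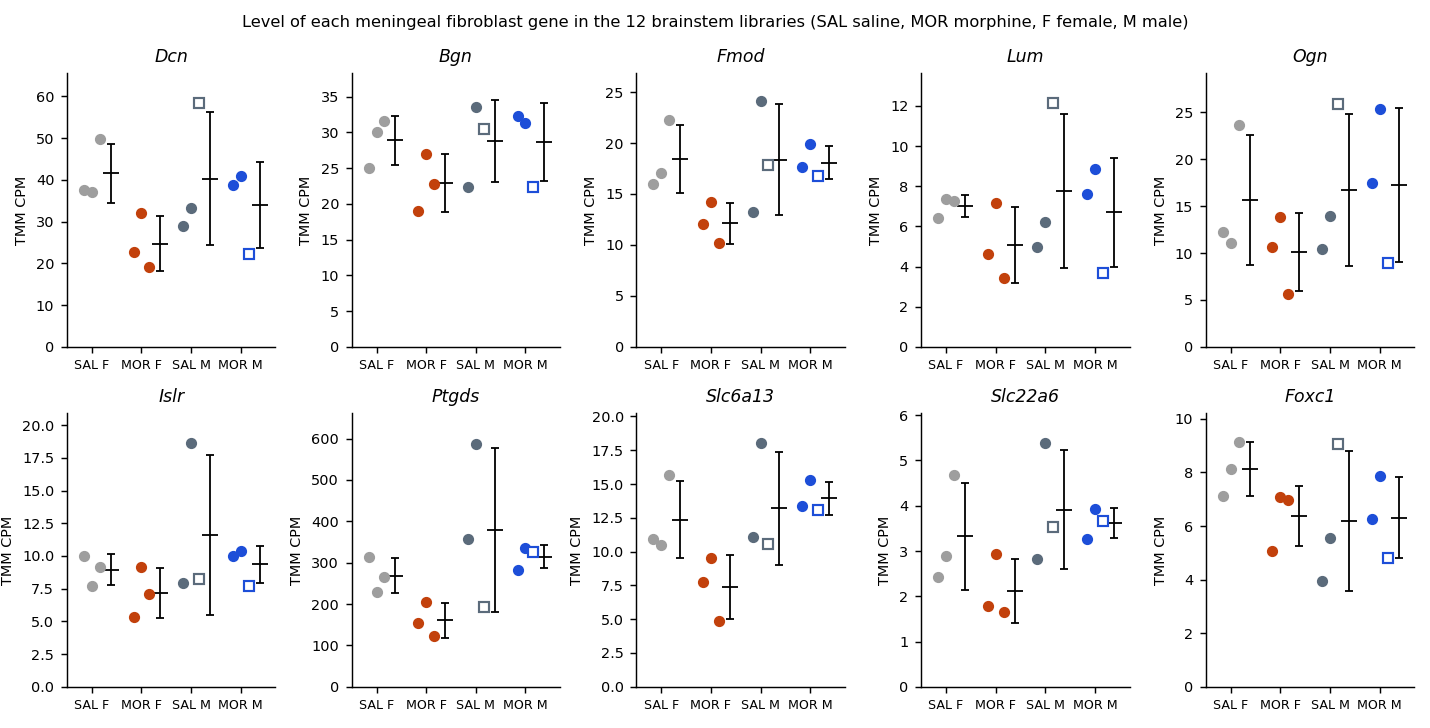
Level of each of the 10 genes in the 12 libraries, in TMM CPM on a linear axis from 0, by group (SAL saline, MOR morphine, F female, M male). Each point is 1 mouse, the bar beside the points is the group mean with its SD, and open squares mark saline male 3 and the library labelled morphine male 6. The morphine females lie below the saline females for *Dcn*, *Fmod*, *Ptgds*, *Slc6a13*, and *Foxc1*, and the male groups overlap for every gene.

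*Dcn* encodes decorin, a proteoglycan that coats collagen fibrils and binds growth factors (chromosome 10, 97479609 to 97518143, GRCm38). It was at 37.7, 37.2, and 49.8 CPM in saline females 4, 5, and 6 and at 22.8, 32.0, and 19.2 CPM in morphine females 1, 2, and 3. No morphine female reached a saline female. *Dcn* fell by 40.9% in morphine females, with a log2 fold change of -0.76 (SE 0.19) and an unadjusted *p* of 0.00286, and it was DE whichever of the 6 females was left out. In saline males 1, 2, and 3 it was at 29.0, 33.3, and 58.5 CPM, and in morphine males 4, 5, and 6 at 38.8, 41.0, and 22.3 CPM. The male groups overlapped, and the highest and the lowest male were the libraries that stood apart. The log2 fold change in males was -0.26 (SE 0.34), and without saline male 3 it was 0.15.

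*Lum*, which encodes lumican, a regulator of fibril diameter, lies 46985 bp from *Dcn* on the same strand (97565128 to 97572703), with the family genes *Kera* and *Epyc* next to it. It was at 6.41, 7.38, and 7.25 CPM in saline females and 4.64, 7.15, and 3.45 CPM in morphine females. Morphine female 2 lay among the saline females, and the log2 fold change of -0.47 (SE 0.24) did not pass the threshold on *p*. In males the values were 4.98, 6.19, and 12.1 CPM with saline and 7.61, 8.85, and 3.66 CPM with morphine. The extremes were again saline male 3 and the library labelled morphine male 6. The log2 fold change in males was -0.23 (SE 0.44), and without saline male 3 it was 0.28.

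*Ogn* encodes osteoglycin (chromosome 13, 49608046 to 49624501), which lies in a run of family genes with *Ecm2*, *Aspn*, and *Omd*. It was at 12.3, 11.0, and 23.7 CPM in saline females and at 10.7, 13.9, and 5.65 CPM in morphine females. The groups overlapped and saline female 6 was well above the other saline females, and without it the log2 fold change moved from -0.64 (SE 0.35) to -0.20. In males *Ogn* was at 10.5, 13.9, and 25.9 CPM with saline and at 17.5, 25.3, and 8.98 CPM with morphine, a log2 fold change of 0.02 (SE 0.46). The spread within each male group covered that between them.

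*Fmod* encodes fibromodulin, which guides the assembly and crosslinking of collagen fibrils (chromosome 1, 134037254 to 134048277). It was at 16.03, 17.1, and 22.3 CPM in saline females and at 12.0, 14.2, and 10.2 CPM in morphine females. The groups did not overlap. *Fmod* fell by 34.7% in morphine females, with a log2 fold change of -0.61 (SE 0.17) and an unadjusted *p* of 0.00503, and it was DE in each fit without 1 female. In males it was at 13.3, 24.1, and 17.8 CPM with saline and at 17.7, 19.9, and 16.7 CPM with morphine, a log2 fold change of -0.03 (SE 0.23). The morphine males lay within the range of the saline males.

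*Bgn* encodes biglycan, a close relative of decorin that also signals to immune cells (chromosome X, 73483602 to 73495933). It was at 25.0, 30.1, and 31.6 CPM in saline females and at 18.9, 27.0, and 22.8 CPM in morphine females. Morphine female 2 was above saline female 4. *Bgn* fell by 21.1%, with a log2 fold change of -0.34 (SE 0.15) and an unadjusted *p* of 0.0474, and it was DE in 2 of the 6 fits without 1 female, with *p* up to 0.187 from edgeR's quasi-likelihood test. In males it was at 22.4, 33.5, and 30.5 CPM with saline and at 32.3, 31.2, and 22.4 CPM with morphine, a log2 fold change of -0.02 (SE 0.22) that was 0.0020 under the size factors of DESeq2 and 0.11 under total counts.

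*Islr* encodes a secreted leucine-rich repeat protein with an immunoglobulin domain that marks mesenchymal cells, and it lies outside the proteoglycan family (chromosome 9, 58156268 to 58204306). It shares 181 bp of exon with *Islr2* on the same strand, so its counts are uncertain. *Islr* was at 10.02, 7.72, and 9.14 CPM in saline females and at 5.32, 9.16, and 7.08 CPM in morphine females, with overlap and a log2 fold change of -0.32 (SE 0.20). In males it was at 7.93, 18.6, and 8.24 CPM with saline and at 10.02, 10.4, and 7.74 CPM with morphine. Saline male 2 stood above the other 11 libraries. Its summed level of 10 skeletal muscle genes was 48.003 CPM, against at most 10.9 CPM elsewhere, and the part of this in the *Islr* value was not tested. Nor was its part in *Bgn*, *Fmod*, *Ptgds*, *Slc6a13*, and *Slc22a6*, which were also highest in saline male 2. The log2 fold change of *Islr* in males was -0.31 (SE 0.35), and without saline male 2 it was 0.19.

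*Ptgds* encodes prostaglandin D synthase, an enzyme that is also secreted into the cerebrospinal fluid as a lipid carrier (chromosome 2, 25466709 to 25470046). It was at 312.9, 228.0, and 265.2 CPM in saline females and at 153.5, 204.6, and 122.6 CPM in morphine females. Every morphine female was below every saline female. *Ptgds* fell by 40.6%, with a log2 fold change of -0.75 (SE 0.18) and an unadjusted *p* of 0.00184, the smallest of the 10 genes, and it was DE in each fit without 1 female. The summed level of 10 oligodendrocyte genes lay between 41441 and 52707 CPM in saline females and between 44896 and 49735 CPM in morphine females, and 0 of these genes had an unadjusted *p* under 0.05 in females with edgeR's quasi-likelihood test. In males *Ptgds* was at 356.8, 587.1, and 191.9 CPM with saline and at 282.7, 334.8, and 324.7 CPM with morphine. Saline male 2 was highest and saline male 3 lowest, and the morphine males lay between them. The oligodendrocyte sum in the same order was 60698, 63987, and 42179 CPM with saline and 36024, 43654, and 45384 CPM with morphine. The sum and *Ptgds* were both highest in saline male 2 and next highest in saline male 1. The lowest males for both were saline male 3 and morphine male 4, in opposite order. The part of oligodendrocytes in the *Ptgds* values was not tested. The log2 fold change of *Ptgds* in males was -0.27 (SE 0.36). It was 0.18 without saline male 2 and -0.55 without saline male 3, where *Ptgds* was DE, as were 28.6% of all genes tested.

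*Slc6a13* encodes the GABA and taurine transporter GAT2 (chromosome 6, 121300227 to 121337733), and *Slc6a12*, which encodes the related betaine and GABA transporter, starts 5343 bp after it. *Slc6a13* was at 10.9, 10.5, and 15.7 CPM in saline females and at 7.78, 9.51, and 4.88 CPM in morphine females. The groups did not overlap. It fell by 40.5%, with a log2 fold change of -0.75 (SE 0.25) and an unadjusted *p* of 0.0130, and it was DE in each fit without 1 female. In males it was at 11.1, 18.0, and 10.6 CPM with saline and at 13.4, 15.3, and 13.1 CPM with morphine, a log2 fold change of 0.07 (SE 0.23). The morphine males lay between saline males 1 and 2.

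*Slc22a6* encodes OAT1, a transporter of organic anions (chromosome 19, 8618039 to 8628299), next to *Slc22a8*, which encodes OAT3. It was at 2.42, 2.89, and 4.67 CPM in saline females and at 1.78, 2.94, and 1.65 CPM in morphine females. Morphine female 2 was above 2 of the saline females, and the log2 fold change of -0.65 (SE 0.32) did not pass the threshold on *p*. In males it was at 2.83, 5.38, and 3.52 CPM with saline and at 3.27, 3.93, and 3.66 CPM with morphine, with -0.12 (SE 0.27). Its neighbor *Slc22a8* had a log2 fold change of -0.04 (SE 0.10) in females.

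*Foxc1* encodes a forkhead factor that meningeal development requires (chromosome 13, 31806633 to 31812476). It was at 7.11, 8.14, and 9.14 CPM in saline females and at 5.07, 7.09, and 6.97 CPM in morphine females. The groups were separated by a narrow gap, from 7.09 to 7.11 CPM, and the log2 fold change of -0.36 (SE 0.18) did not pass the threshold on *p*. In males it was at 3.96, 5.56, and 9.07 CPM with saline and at 6.27, 7.87, and 4.81 CPM with morphine, with 0.01 (SE 0.35). Its lowest value was in saline male 1, where 9 of the 10 genes were below their own mean over the libraries.

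The stretches upstream of the start sites are shown for the 4 genes that were DE in females and have an entry in the RefSeq promoter table (GRCm38.p6). The table matched 8 of the 10 genes, and *Dcn* and *Lum* were not among them. Each sequence runs 5′ to 3′ on the strand of the gene, starts 250 bases before the RefSeq start site, and stops there or at the first base of a GENCODE exon. Capitals mark matches to GGGCGG on either strand, the core of the GC box. *Fmod* is chr1:134037004-134037253 on the plus strand, *Bgn* is chrX:73483351-73483600 on the plus strand, *Slc6a13* is chr6:121300038-121300226 on the plus strand, and *Ptgds* is chr2:25469843-25469999 on the minus strand.
Fmod: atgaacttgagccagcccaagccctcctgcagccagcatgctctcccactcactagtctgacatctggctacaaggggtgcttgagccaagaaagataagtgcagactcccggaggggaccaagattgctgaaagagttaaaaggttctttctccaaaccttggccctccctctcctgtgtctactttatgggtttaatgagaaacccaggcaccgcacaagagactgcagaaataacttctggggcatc
Bgn: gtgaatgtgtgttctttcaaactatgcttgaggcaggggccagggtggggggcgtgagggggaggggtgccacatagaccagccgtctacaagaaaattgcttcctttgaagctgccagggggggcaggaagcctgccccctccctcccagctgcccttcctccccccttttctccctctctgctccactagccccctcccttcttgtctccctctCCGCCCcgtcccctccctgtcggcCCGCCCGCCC
Slc6a13: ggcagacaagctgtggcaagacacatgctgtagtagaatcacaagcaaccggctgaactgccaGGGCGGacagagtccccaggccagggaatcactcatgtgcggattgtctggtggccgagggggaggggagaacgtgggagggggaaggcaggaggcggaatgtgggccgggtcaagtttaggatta
Ptgds: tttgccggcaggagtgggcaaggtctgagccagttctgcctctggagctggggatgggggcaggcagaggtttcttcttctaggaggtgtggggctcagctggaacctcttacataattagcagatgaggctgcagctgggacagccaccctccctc

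Over the full 250 bases, GGGCGG was present in 3 of the 8 genes, *Bgn*, *Slc6a13*, and *Foxc1*, against 32.7% of the 32851 promoters in the table. The matches of *Bgn* lie at -34 to -29, -10 to -5, and -6 to -1, counted from the start site, and the last pair overlap each other. CCAAT on either strand was present in 2, *Slc22a6* and *Foxc1*, against 33.8% of all promoters, and TATAAA in 1, *Ogn*, against 12.4%. The forkhead core GTAAACA was present in 0 of the 8 and in 3.17% of all promoters. Of the 4 printed genes, *Bgn* and *Slc6a13* thus held GGGCGG, and *Fmod* and *Ptgds* held none of the 4 motifs in this window. The GC content of their 250 bases was 51.2% for *Fmod*, 58.4% for *Ptgds*, 60.8% for *Slc6a13*, and 64.4% for *Bgn*, with a median of 52.4% over all promoters.

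In the sex-combined comparison, 2 of the 10 genes were DE, *Dcn* and *Ptgds*, and both were lower in morphine mice. Of the 18608 genes tested, 1.19% were DE genes and 0.58% were DE genes that were lower. All 10 genes had a log2 fold change below 0, between -0.49 and -0.15, as did 57.4% of the genes tested, and all 10 were also below 0 when libraries were scaled by total counts or by the size factors of DESeq2. Without both libraries that stood apart *Foxc1* was at 0.0047. *Dcn* averaged 40.9 ± 11.1 CPM (SD, n = 6) with saline and 29.3 ± 9.24 CPM (SD, n = 6) with morphine, with a log2 fold change of -0.49 (SE 0.22). *Ptgds* averaged 323.6 ± 141.8 and 237.2 ± 90.0 CPM (SD, n = 6 each), also with -0.49 (SE 0.22). The groups overlapped for all 10 genes. The exact two-sided permutation *p* of the difference in mean log2 CPM was 0.0671 for *Dcn* and 0.216 for *Ptgds*. Without saline male 3 only *Ptgds* was DE, at -0.68, and *Dcn* moved to -0.37. Only *Ptgds* was DE without the library labelled morphine male 6 too. Without saline male 2 *Ptgds* moved to -0.33 and was not DE. The count of DE genes among the 10 was 0 without any 1 of saline females 4, 5, and 6 and morphine females 1 and 3, by edgeR's quasi-likelihood test. When TMM was replaced by total counts, 0 of the 10 genes were DE by edgeR, and with DESeq2 the count was 2.

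**Figure D2:**
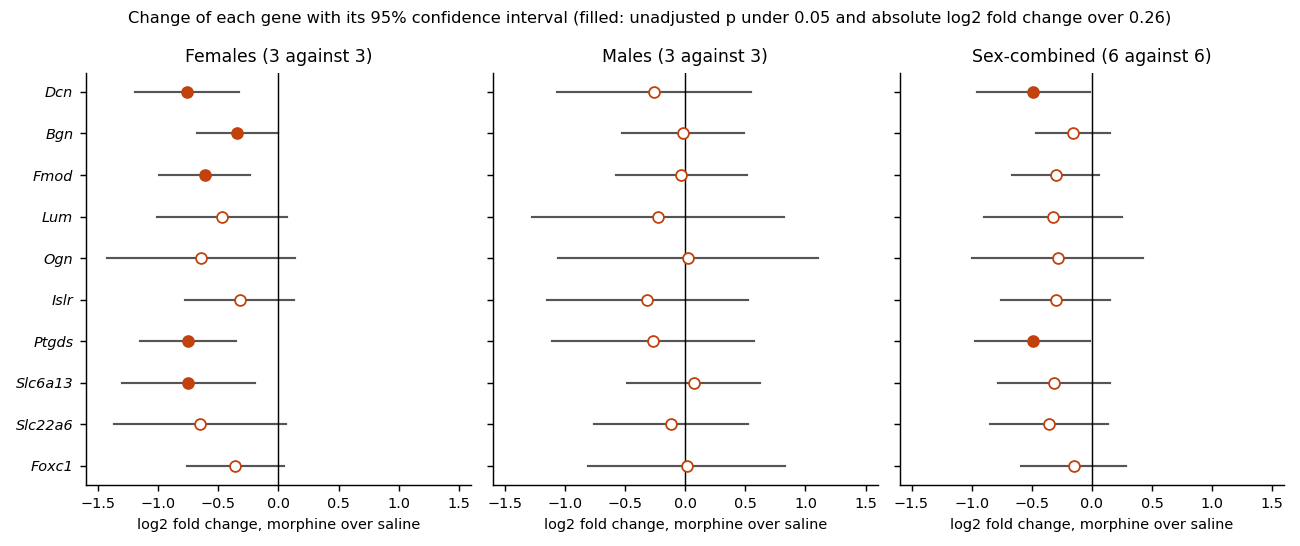
Log2 fold change (morphine over saline) of each gene with its 95% confidence interval, for females, males, and both sexes together, on 1 shared horizontal scale. Filled points are DE genes. In females the 10 points lie between -0.76 and -0.32 and 5 are filled, and in males they lie between -0.31 and 0.07 with intervals that all include 0.

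In males 18166 genes were tested and 2.99% were DE genes. Among the 10 the count of DE genes was 0 by all 3 tools, the quasi-likelihood test, exactTest, and DESeq2, and the number with an unadjusted *p* under 0.05 was also 0 with each tool. The log2 fold changes lay between -0.31 and 0.07, 7 of the 10 were below 0, as were 62.4% of the genes tested, and the median was -0.08 against -0.06 for all genes. Scaling by total counts moved the median of all genes in males to 0.06, and then 4 of the 10 genes were below 0. Without the library labelled morphine male 6, 4 of the 10 were also below 0. Their median was then 0.04, against -0.06 for all genes. The 95% confidence interval of the log2 fold change was -1.06 to 0.55 for *Dcn*, -1.11 to 0.57 for *Ptgds*, and -0.49 to 0.63 for *Slc6a13*. The female log2 fold change lay inside the male interval for *Dcn* and *Ptgds* and outside it for *Slc6a13*. Without both saline male 3 and the library labelled morphine male 6, which left 2 mice in each group, 41.0% of all genes tested and 5 of the 10 genes were DE. In that fit *Dcn* (0.37), *Lum* (0.57), *Ogn* (0.81), and *Foxc1* (0.57) were higher and *Ptgds* (-0.60) was lower in morphine males.

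Whether the log2 fold change differed between the 2 sexes was tested as an interaction term over 19027 genes, where a positive value is a log2 fold change that is higher in males than in females. It was above 0 for all 10 genes, although *Islr* fell below 0 in several fits that left out mice, with a median of 0.51, while 54.4% of the genes tested were below 0 and their median was -0.03. *Slc6a13* passed the thresholds, at 0.84 (SE 0.38) with an unadjusted *p* of 0.0458 and an adjusted *p* of 0.985 (edgeR), where 2.94% of the genes tested passed in either direction and 1.61% with a value above 0. *Fmod* was at 0.60 (SE 0.30), *Ogn* at 0.69 (SE 0.65), *Dcn* at 0.52 (SE 0.42), *Ptgds* at 0.498 (SE 0.43), and *Islr* at 0.03 (SE 0.44), and none of these passed. The call for *Slc6a13* was lost with DESeq2's size factors and in 9 of the 12 fits that left out 1 mouse. Without the library labelled morphine male 6, 0 of the 10 genes passed, with a median of 0.56 against -0.01 for all genes. Without saline male 3, *Dcn* (0.87) and *Foxc1* (0.75) passed and *Slc6a13* did not, where 24.1% of the genes tested passed. Without both libraries that stood apart, *Slc6a13* was at 0.71 and not DE, and *Dcn* (1.10), *Lum* (1.01), *Ogn* (1.43), and *Foxc1* (0.91) passed with values above 0, where 30.7% of the genes tested passed. *Dcn* then had an adjusted *p* of 0.0152 from edgeR, where 15.7% of the genes tested were under 0.05.

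With treatment as a covariate, the log2 difference of males over females was above 0 for 9 of the 10 genes, and for *Foxc1* it was -0.21 (SE 0.20). *Ptgds* was higher in males by 0.72 on the log2 scale (SE 0.22), at 346.3 ± 131.6 CPM (SD, n = 6) against 214.5 ± 70.3 CPM (SD, n = 6) in females, and *Slc6a13* by 0.49 (SE 0.22), at 13.6 ± 2.77 against 9.88 ± 3.60 CPM (SD, n = 6 each). These 2 genes passed the thresholds, as did 3.94% of the 18608 genes tested, 3.05% with a higher level in males. Of all genes 51.1% were below 0. An adjusted *p* under 0.05 was reached by 0.0269% of them and by 0 of the 10 genes, with either edgeR or DESeq2. Without the library labelled morphine male 6 *Ptgds* still passed and *Slc6a13* did not. Genes of the choroid plexus, the tissue that makes cerebrospinal fluid, also passed the thresholds: 7 of 10 were DE and higher in males, and 0 had an adjusted *p* under 0.05 (edgeR). Their summed level lay between 13.5 and 494.0 CPM in females and between 281.8 and 870.8 CPM in males, so the sexes overlapped. How much choroid plexus each piece of tissue carried was not measured. The part of choroid plexus in the levels of *Ptgds* was not tested.

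The libraries in which the 10 genes were highest and lowest were few. *Dcn*, *Lum*, and *Ogn* were highest in saline male 3, *Bgn*, *Fmod*, *Islr*, *Ptgds*, *Slc6a13*, and *Slc22a6* in saline male 2, and *Foxc1* in saline female 6. The lowest value was in morphine female 3 for 7 of the 10 genes, in morphine female 1 for *Bgn* and *Islr*, and in saline male 1 for *Foxc1*. The mean standardized level of the 10 genes was -1.44 SDs in morphine female 3 and -1.21 SDs in morphine female 1, but -0.10 SDs in morphine female 2. It was lower in morphine females 1 and 3 than in any other library, and morphine female 2 was above saline male 1 and the library labelled morphine male 6. Without morphine female 2, 9 of the 10 genes were DE in females, where 3.73% of the genes tested were, and without saline female 4 the number was 8, where 7.95% were.

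**Figure D3:**
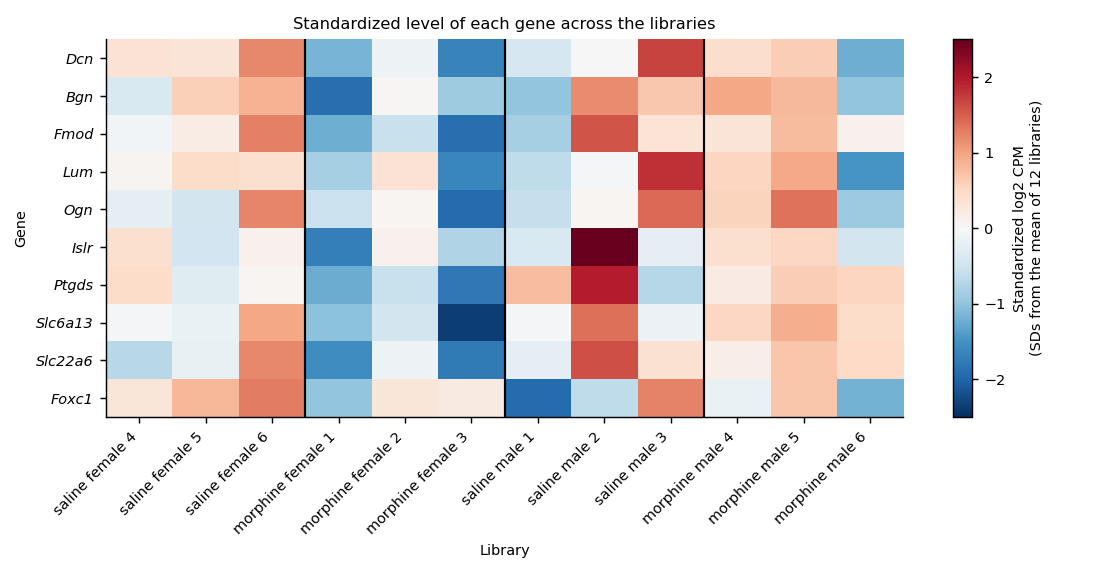
Standardized log2 CPM of each gene (rows) in each library (columns), in SDs from the mean of the gene over the 12 libraries, with black lines between the groups. Morphine females 1 and 3 are below the mean for 10 and 9 of the 10 genes, saline female 6 and morphine male 5 are above it for all 10, and saline males 2 and 3 are high for different genes.

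The levels of the genes were compared in pairs over the 12 libraries, 45 pairs in all. Pearson's *r* of log2 CPM had a median of 0.66 and was above 0 for 44 of the 45 pairs, and 26 pairs had an adjusted *p* under 0.05 in permutation tests, 20 with Spearman's rho. On deviations from the group means, which remove the differences between treatments and sexes, the median *r* was 0.52. *Dcn* and *Lum* had *r* = 0.94 and rho = 0.92 (permutation adjusted *p* = 0.000225 and 0.0018), and *r* = 0.87 without saline male 3 and morphine female 3, the libraries farthest from the median of *Dcn*. *Dcn* and *Ogn* had *r* = 0.90 and rho = 0.93 (permutation adjusted *p* = 0.00099 and 0.00158), and 0.81 without the same libraries. *Fmod* and *Slc22a6* had *r* = 0.94 and rho = 0.92 (permutation adjusted *p* = 0.000225 and 0.00158), and 0.87 without saline male 2 and morphine female 3. *Fmod* and *Slc6a13* had *r* = 0.93 and rho = 0.83 (permutation adjusted *p* = 0.000225 and 0.00881), and 0.86 without those libraries. *Ptgds* and *Foxc1* formed the pair below 0, at *r* = -0.29 and rho = -0.32 (permutation adjusted *p* = 0.399 and 0.375). All pairs share the depth and the dissection of each library.

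**Figure D4:**
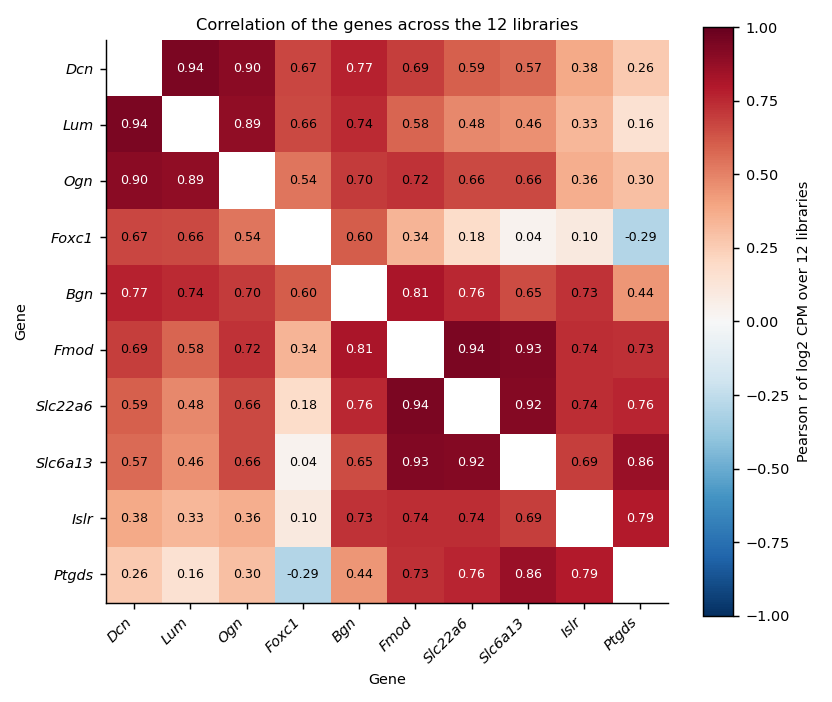
Pearson's *r* of log2 CPM over the 12 libraries for each pair of genes, written in the cells. *Dcn*, *Lum*, and *Ogn* are joined by values of 0.89 to 0.94 and *Fmod*, *Slc22a6*, and *Slc6a13* by values of 0.92 to 0.94, and *Ptgds* is at 0.30 or less with *Dcn*, *Lum*, *Ogn*, and *Foxc1*.

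Of 18598 other genes, those whose levels followed the mean standardized level of the 10 genes most closely over the 12 libraries were *Slc13a4*, a sulfate transporter (*r* = 0.945), *Serping1*, the C1 inhibitor (*r* = 0.943), *Bmp6*, a bone morphogenetic protein (*r* = 0.941), and the collagen genes *Col3a1* (*r* = 0.940) and *Col1a2* (*r* = 0.940). *Fgfbp1*, which encodes a carrier of fibroblast growth factors (*r* = 0.934), *C1qtnf7* (*r* = 0.933), *Aldh1a2*, which encodes a retinoic acid-synthesizing enzyme (*r* = 0.932), *Cavin1*, which encodes a caveolar coat protein (*r* = 0.928), and the transcription factor gene *Osr1* (*r* = 0.920) completed the first 10. The values are descriptions over 12 libraries and carry no test. Of these 10 genes, 5 were on the list of other meningeal fibroblast genes and 2 on the list of fibroblast collagens. *Aldh1a2* was at 12.6, 10.00, and 16.1 CPM in saline females and 6.76, 7.81, and 6.64 CPM in morphine females, without overlap, and had a log2 fold change of -0.88 (SE 0.19). *Slc13a4* had -1.04 (SE 0.31). Both were DE in females. They were picked for following the 10 genes, which were lower in morphine females, so these calls are not an independent result.

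Other genes of meningeal fibroblasts were read beside the 10, from a list also chosen with earlier results of these data known. The list holds *Aldh1a2* and *Cdh1*, which the paper reports as lower in morphine females. Of 28 genes on that list, all of them tested, 15 were DE and lower in morphine females and 0 were higher, 27 were below 0, and the median log2 fold change was -0.63, as it was for the 10 genes. Of all genes tested in females, 0.884% were DE and lower and 51.8% were below 0. In males 0 of the 28 had an unadjusted *p* under 0.05 with edgeR's quasi-likelihood test, and the median was 0.02. The interaction of treatment and sex was above 0 for 26 of the 28 and DE for 5, among them *Slc6a12* (1.13, SE 0.41), the neighbor of *Slc6a13*, *Slc6a20a* (0.87, SE 0.36), and *Slc13a4* (1.19, SE 0.49). These 5 had values above 0, as did the 1.61% of all genes tested that were DE in that direction. In the sex-combined comparison *Emp3* (-0.55, SE 0.20), *Osr1* (-0.77, SE 0.29), *Foxc2* (-0.71, SE 0.28), and *Mgp* (-0.34, SE 0.15), the last named after its values were seen, were DE and lower, as were 0.58% of all genes tested. Of the 14 fibroblast collagens, *Col6a1* (-0.46, SE 0.18) and *Col3a1* (-0.87, SE 0.35) were DE and lower in morphine females and *Col6a2* (0.63, SE 0.26) was DE and higher, with a median of -0.37 in females and 0.05 in males. Of all genes tested in females, 1.81% were DE in either direction.

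Of 14 other genes of the small leucine-rich proteoglycan family, 11 were tested, and in females 1 was DE, *Prelp*, the neighbor of *Fmod*, at -0.51 (SE 0.14), with a median over the 11 of -0.23. The share of DE genes over all genes tested in females was 1.81%. *Prelp* was at 8.07, 8.27, and 8.29 CPM in saline females and 5.26, 6.48, and 5.61 CPM in morphine females, without overlap. The neighbors of *Ogn* had log2 fold changes in females of -0.31 (SE 0.25) for *Aspn*, -0.23 (SE 0.30) for *Omd*, and -0.41 (SE 0.20) for *Ecm2*, and none of them passed the thresholds. *Kera* and *Epyc*, next to *Lum*, were too low to be tested.

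**Figure D5:**
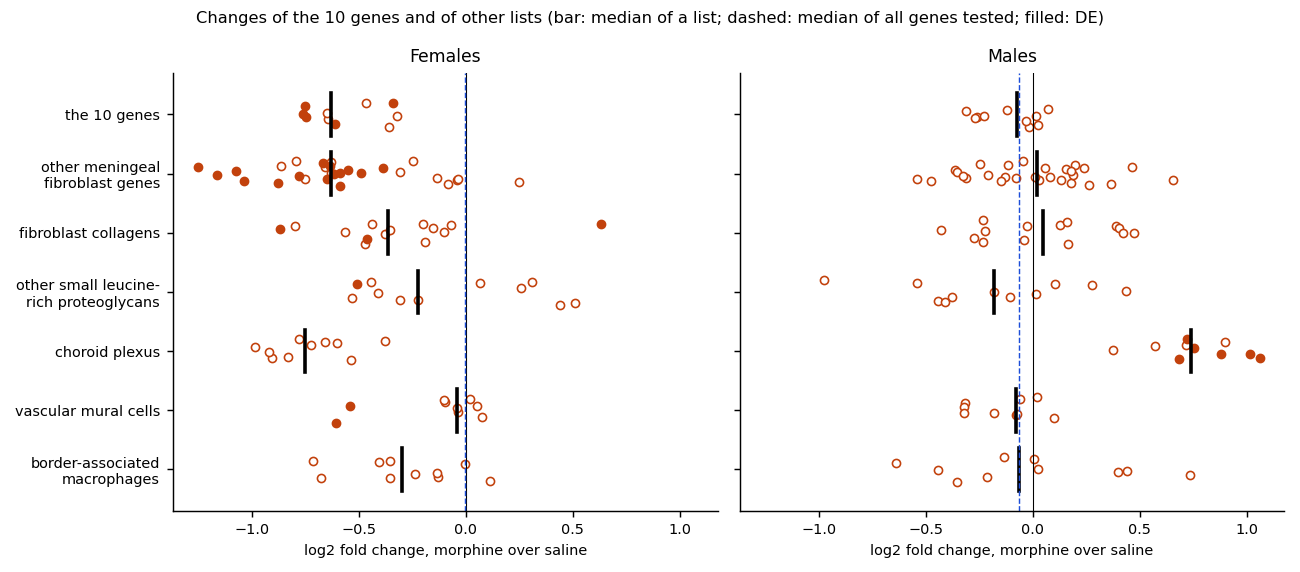
Log2 fold change (morphine over saline) of the tested genes of 7 lists in females and in males, on a shared scale. Each point is 1 gene, filled points are DE genes, the black bar is the median of the list, and the dashed line is the median of all genes tested. In females the 10 genes and the other meningeal fibroblast genes have medians of -0.63, and in males of -0.08 and 0.02.

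Markers of neighboring tissues were read beside these values. In females the summed choroid plexus level was 13.5, 44.5, and 494.0 CPM in the saline mice and 172.0, 34.1, and 136.5 CPM in the morphine mice, and 0 of its 10 genes had an unadjusted *p* under 0.05 with edgeR's quasi-likelihood test, while all 10 were below 0, with a median of -0.75. Saline female 6 carried most of this signal and was also the highest saline female for *Dcn*, *Bgn*, *Fmod*, *Ogn*, *Slc6a13*, *Slc22a6*, and *Foxc1*. Without saline female 6 the log2 fold change in females was -0.59 for *Dcn* and -0.44 for *Fmod*, and both were still DE. In males 6 of the 10 choroid plexus genes were DE and higher in morphine mice, among them *Folr1* (1.06, SE 0.30), *Slc4a5* (0.75, SE 0.27), and *Clic6* (0.88, SE 0.33), while 0 of the 10 meningeal genes were DE. Of all genes tested in males, 1.92% were DE and higher. The summed level was 541.0, 452.3, and 281.8 CPM in saline males and 808.9, 870.8, and 431.7 CPM in morphine males, with overlap. The genes mark 1 tissue, so their calls are not separate results. Of the vascular mural cell genes, *Acta2* and *Myh11* were DE and lower in morphine females, as were 0.884% of all genes tested. The median was -0.04 over the 9 tested, and the summed level lay between 439.7 and 481.8 CPM in saline and between 435.6 and 450.6 CPM in morphine females. Border-associated macrophages, which live in the meninges, had 0 of 10 DE genes in females and a median of -0.30. The part of these tissues in the levels of the 10 genes was not tested.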

How the data were processed

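The deposited values were whole-number read counts per gene. The authors sequenced 12 libraries on 1 lane (100 bp, single-end), used Trimmomatic for trimming and STAR for alignment to mm10, and assigned reads to exons of a GRCm38 annotation with featureCounts; versions and the strand setting were not given in the sources used here. The paper calls the values normalized, but they are whole numbers with unequal totals and were treated as raw counts.

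All genes were fitted with edgeR 4.0.16 in R 4.3.3 (filterByExpr, TMM factors, quasi-likelihood test, Benjamini-Hochberg adjustment). Sex was a covariate where both sexes were fitted together, and each sex was also fitted alone. Dam is not in the labels and was not used. The thresholds for DE genes were 0.05 on the unadjusted *p* and 0.26 on the size of the log2 fold change. The scripts were tested on simulated data. Alternatives were exactTest, DESeq2 1.42.0, other scalings, filters and covariates, a replicate block, and omission of each mouse. The fit without saline male 3 and the library labelled morphine male 6 was chosen after seeing the data.

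Correlations used log2 CPM with a prior count of 2 and 100000 permutations. Promoters came from RefSeq (GRCm38.p6) and positions from GENCODE M21.

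The 10 genes and the lists were chosen with earlier results of these data known. By rule, at most 3 DE genes of each other list were named per fit, those with the smallest *p*, with *Mgp* as an exception named after its values were seen, beside the 10 genes most like the members, the family neighbors, and the sex genes. The *p*-values measure the spread between 3 mice per sex and treatment, whose litters are not in the labels.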

Additional observations from a re-analysis of the deposited data

Results flagged for a closer look

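Samples were compared within each treatment for the 10 genes, 20 groups of 6 mice in all, where chance alone flags about 1 in 20 groups. *Lum* was at 12.1 CPM in saline male 3, apart from the other saline mice at 4.98 to 7.38 CPM. *Islr* was at 18.6 CPM in saline male 2, apart from the other saline mice at 7.72 to 10.02 CPM. The log2 fold change of *Slc6a13* was higher in males than in females by 0.84, and the edgeR test of the interaction gave an unadjusted *p* of 0.0458 and an adjusted *p* of 0.985.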

How the results depend on the processing

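The count of 5 DE genes in females was 4 or 5 with exactTest, DESeq2, other size factors, total counts, a stricter filter, and the contrast from the fit of all 12 mice, and became 8 without a filter on low counts, where 3.15% of the genes tested were DE. Leaving out 1 mouse gave 4 to 9 DE genes in females, 0 to 1 in males, 0 to 3 in the sex-combined comparison, 0 to 3 in the interaction, and 1 to 5 for the sex effect. The share of all genes that were DE also changed. In females it was 7.95% without saline female 4 and 3.73% without morphine female 2. Without saline male 3 it was 28.6% in males and 24.1% in the interaction. For the other omissions no share is given, so those counts cannot be weighed against all genes. With an adjusted *p* under 0.05 from edgeR in place of the study's thresholds, and no other change, the count was 0 in each of the 5 comparisons. The sex-combined count of 2 became 1 with exactTest, without the sex covariate, with a replicate block, and without both saline male 3 and the library labelled morphine male 6, and 0 with total counts. The interaction count of 1 became 0 with DESeq2's size factors, 2 with total counts, and 4 without both libraries, and the sex effect count of 2 became 1 with total counts. Replicate numbers are shared only between mice of different sex and do not pair them: 1 of 6 pairs had a correlation of deviations over 0.1, and 2 of 12 libraries correlated best with their own number. The cause of these moves was not tested.

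In males 0 of the 10 genes were DE and signs turned. Without both libraries 5 of the 10 were DE, where 41.0% of all genes tested were. In that fit *Dcn* was at 0.37, *Bgn* at 0.19, *Fmod* at 0.011, *Lum* at 0.57, and *Slc6a13* at -0.013. With total counts *Bgn* was at 0.11, *Fmod* at 0.093, and *Slc22a6* at 0.0028. *Bgn* was at 0.0020 with DESeq2's size factors and 0.0097 in the fit of all 12 mice. Leaving out 1 male gave log2 fold changes of -0.45 to 0.15 for *Dcn*, -0.17 to 0.12 for *Bgn*, -0.22 to 0.20 for *Fmod*, -0.47 to 0.28 for *Lum*, -0.30 to 0.52 for *Ogn*, -0.53 to 0.19 for *Islr*, -0.55 to 0.18 for *Ptgds*, -0.046 to 0.34 for *Slc6a13*, -0.31 to 0.17 for *Slc22a6*, -0.23 to 0.43 for *Foxc1*. In the interaction *Islr* ranged from -0.19 to 0.53 over these omissions and was at -0.080 without both libraries. In the sex-combined comparison *Foxc1* was at 0.0047 without both libraries. With 2 or 3 mice per group, differences no larger than the SEs given could not be told from 0.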

Other observations

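Other cell type lists held few DE genes. *Lyve1*, a marker of macrophages at the brain's borders, was lower in morphine mice of both sexes together (-0.51 on the log2 scale, SE 0.22), and *Ms4a7* of the same list passed in the interaction (1.43, SE 0.63). *Cldn11*, which encodes a tight junction protein of myelin, was lower in morphine males (-0.49, SE 0.13) and in the sex-combined comparison (-0.29, SE 0.097), and *Mobp* was lower in morphine males (-0.42, SE 0.18). *Agt*, which encodes angiotensinogen, was higher in morphine females (0.36, SE 0.16). *Itm2a* was DE and higher in morphine females and males, and its level was 32.3 CPM in morphine female 1, 24.0 CPM in the library labelled morphine male 6, and 1.28 to 2.33 CPM in the other 10 libraries.

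Medians of the log2 fold change in females were -0.05 for the 10 endothelial genes, -0.04 for the 10 neuronal genes, 0.01 for the 10 astrocyte genes, 0.09 for the 10 microglial genes, and -0.03 for the 10 oligodendrocyte genes. Of the lists with genes too low to test, the median was 0.02 for 6 bone, cartilage and tendon genes, 0.22 for 5 skeletal muscle genes, and 0.08 for 7 red blood cell genes, and 0 of these were DE or had an unadjusted *p* under 0.05 with edgeR's quasi-likelihood test.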
